A study of Arabidopsis thaliana with 6 samples.

Results

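The 8 genes described here encode the PINOID and D6 protein kinases of Arabidopsis, taken by gene identifier from the 37336 genes listed for sorted quiescent centre (QC) cells. They are PID (AT2G34650), PID2 (AT2G26700), WAG1 (AT1G53700) and WAG2 (AT3G14370), called the AGC3 group below, and D6PK (AT5G55910), D6PKL1 (AT4G26610), D6PKL2 (AT5G47750) and D6PKL3 (AT3G27580), which RefSeq lists as ATPK7, called the D6 group. All 8 were present in the files. PID2 and WAG2 were chosen by their measured values, PID2 because it was absent from bravo-2 and WAG2 because the study lists it among its regulated genes, so the contrast of the 2 genotypes is only described for them. The other 6 were taken because they belong to the same families, and their contrast was tested, for PID only in the fit without a filter on low values.

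The libraries came from primary roots of 5-day-old seedlings in the Columbia background, all of which carried GFP under the WOX5 promoter. GFP-marked cells were sorted from root protoplasts of the knockout mutant bravo-2, which lacks the MYB transcription factor BRAVO, and of the wild type (WT), with 3 libraries of each genotype, and the small amounts of RNA were amplified for sequencing. The sort follows the activity of this promoter, which marks the QC but is not wholly restricted to it, rather than a dissected cell type. The labels do not say whether the 3 libraries of a genotype came from separate sorts, so p-values measure the spread between these libraries only. The study names the sorting as a confounding factor, but the labels assign no library to a sort, so no sort could be entered as a term.

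Auxin moves through the root from cell to cell, carried out of cells by PIN proteins that sit on one side of the plasma membrane. Kinases of the plant-specific AGC family phosphorylate the cytosolic loop of PIN proteins. PID, WAG1 and WAG2 are known for directing PIN proteins to the apical side of the cell, and PID2 for acting with PID in cotyledon formation. The D6 kinases reside at the basal membrane and activate PIN proteins without changing their side.

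The family carries a signature in its catalytic core, where the metal-binding triplet that most protein kinases write as Asp-Phe-Gly reads Asp-Phe-Asp. Translation of the RefSeq coding sequences (TAIR10.1) gave Asp-Phe-Asp in all 8 members. The 45 coding bases around that triplet are shown because they display how far the members have drifted apart around a triplet that all of them keep, which bears on whether reads can be told apart. They run 5′ to 3′ on the coding strand, each lies in 1 exon, and capitals mark the 3 codons of the triplet.
PID, chr2:14590558-14590602, minus strand: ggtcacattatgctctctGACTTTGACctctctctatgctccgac
PID2, chr2:11369834-11369878, plus strand: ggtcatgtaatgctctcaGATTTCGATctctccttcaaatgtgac
WAG1, chr1:20049294-20049338, plus strand: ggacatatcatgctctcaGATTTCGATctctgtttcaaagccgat
WAG2, chr3:4798752-4798796, minus strand: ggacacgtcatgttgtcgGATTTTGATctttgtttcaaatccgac
D6PK, chr5:22640772-22640816, minus strand: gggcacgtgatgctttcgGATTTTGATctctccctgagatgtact
D6PKL1, chr4:13426445-13426489, plus strand: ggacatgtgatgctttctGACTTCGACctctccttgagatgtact
D6PKL2, chr5:19340682-19340726, minus strand: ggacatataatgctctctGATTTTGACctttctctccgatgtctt
D6PKL3, chr3:10218409-10218453, minus strand: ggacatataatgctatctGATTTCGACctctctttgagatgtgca

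Over these 45 bases PID2 differed from the other members at 9 to 15 positions, with WAG1 the nearest and PID the farthest. D6PK and D6PKL1 differed at 7. Over the aligned proteins the closest pairs were D6PK with D6PKL1 (88.9% identical residues), WAG1 with WAG2 (76.9%) and D6PK with D6PKL2 (75.7%), whereas PID2 was 53.0% identical to PID and 47.2% to WAG2. The longest exact run that a PID2 transcript shared with a transcript of any other gene was 22 bases, with WAG1. For WAG1 and WAG2 it was 35 bases, with each other, and for D6PK 35 bases, with D6PKL1. The estimated counts of PID, PID2, WAG1, WAG2, D6PK and D6PKL3 were whole in all 6 libraries, so no read of theirs was divided with another gene.

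D6PKL1 and D6PKL2 were the exceptions. The 3′ end of D6PKL1 overlaps AT4G26620 on the opposite strand by 374 bases, and D6PKL2 overlaps AT5G47740 on the opposite strand by 73 bases. Whether counting used the strand is not given in the sources used here. D6PKL1 had fractional counts in all 6 libraries, with a posterior standard deviation of 2.09 to 3.47 reads on counts of 380 to 758, and D6PKL2 in 1 library. The uncertainty from divided reads was therefore below the spread between libraries for D6PKL1.

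PID2 spans chr2:11368474-11371124 on the plus strand, has 3 exons and encodes 525 residues. It had 0 counts in bravo-2 replicates 1, 2 and 3, against 43, 128 and 42 counts in WT replicates 1, 2 and 3. On the scale of CPM, read counts divided by the TMM-scaled library size and used for all levels of single genes below, WT held 3.54, 10.9 and 3.08 CPM. Every bravo-2 library was thus without a read of PID2, and WT replicate 2 stood above the other two WT libraries. The smallest level that could be shown was taken as 3 counts in a library. Among the bravo-2 libraries this level was highest in replicate 3 after TMM scaling, at 0.284 CPM. By that level PID2 was at least 10.9-fold lower in bravo-2 than in the lowest WT library. These limits cover counting error only, as amplified reads are not independent molecules. The filter on low values kept 15739 genes whose mean before TMM scaling reached 4 CPM in either genotype. Of these, 2 (0.0127%) were listed at 0 in all 3 bravo-2 libraries, PID2 and AT1G29540 on chromosome 1. In the other direction, 3 were at 0 in all 3 WT libraries. PID2 was chosen for its absence from bravo-2 and passed the expression filter only through WT, so nothing is read from these counts.

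The genes around PID2 were examined because they share its position on chromosome 2, a choice made after its values were seen. BAS1 (AT2G26710), which encodes a cytochrome P450 that inactivates brassinosteroids, starts 9338 bases beyond the end of PID2. It measured 147, 51.4 and 54.6 CPM in bravo-2 replicates 1, 2 and 3, against 99.6, 89.7 and 75.6 CPM in WT. AT2G26690, an NPF transporter gene on the other side, measured 25.0, 19.9 and 11.9 CPM in bravo-2 and 8.39, 12.8 and 6.02 CPM in WT. AT2G26680 and AT2G26730, farther out, were also counted in all 6 libraries. The genotypes overlapped for each of these 4 neighbours, and none of the 4 was at 0 in a bravo-2 library. AT2G26695, the nearest gene upstream, was listed at 0 in all 6 libraries, and AT2G26720 was at 0 in 5 of the 6.

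**Figure D1:**
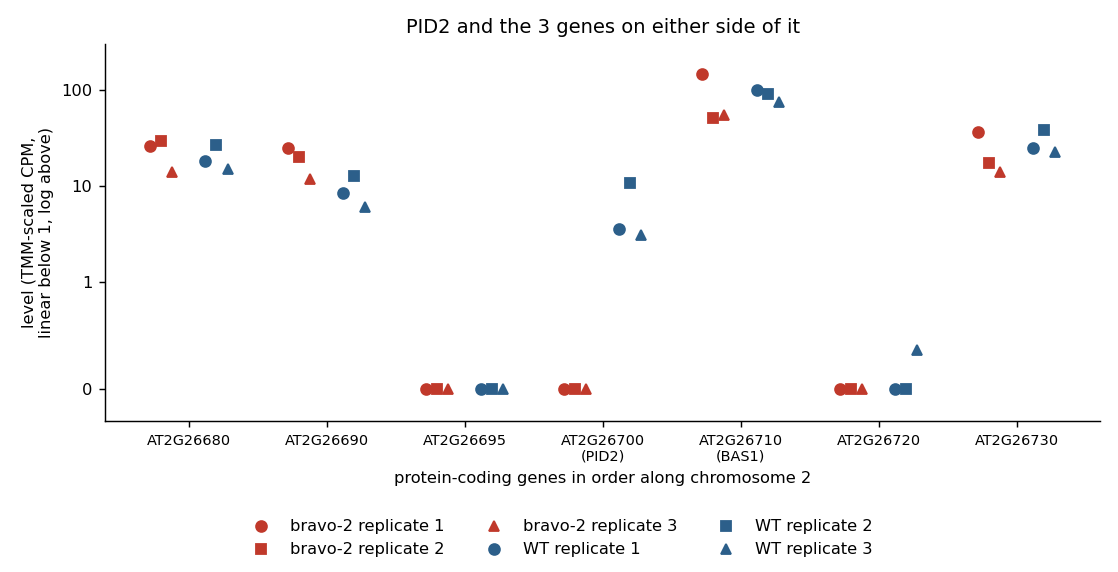
Level of PID2 and of the 3 protein-coding genes on either side of it, in gene order along chromosome 2. The vertical axis is TMM-scaled CPM, linear below 1 and logarithmic above, and each point is 1 library (bravo-2 red, WT blue). PID2 is at 0 in the 3 bravo-2 libraries and at 3.08 to 10.9 CPM in the 3 WT libraries, while BAS1 lies between 51.4 and 147 CPM in all 6.

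PID (chr2:14589736-14592140, minus strand, 2 exons, 438 residues), the founding member of the family, was the other low gene. It measured 1.80, 9.58 and 23.6 CPM in bravo-2 replicates 1, 2 and 3, against 5.26, 1.02 and 2.42 CPM in WT. Its mean was 11.7 ± 11.1 CPM in bravo-2 and 2.90 ± 2.16 CPM in WT (SD, n = 3 each), so PID passed the expression filter only through bravo-2. Bravo-2 replicates 2 and 3 lay above all WT libraries, but bravo-2 replicate 1 lay among them. The log2 fold change of bravo-2 over WT was 2.00 (standard error 1.01, 95% interval -0.36 to 4.36), given as a description because of the way PID entered that fit. In the fit of all 26842 genes with a count, which needs no minimum level, it was also 2.00 (standard error 0.94), with an adjusted p of 1.00 in edgeR's quasi-likelihood test. Without bravo-2 replicate 3 the log2 fold change was 0.95, and without WT replicate 1 it was 2.78. Without bravo-2 replicate 1 it was 2.51 and the genotypes no longer overlapped, as was then the case for 10.4% of all genes tested.

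WAG1 (chr1:20048434-20050294, plus strand, 1 exon) and WAG2 (chr3:4797828-4799612, minus strand, 1 exon) restrain the waving of root growth and were far more abundant than PID and PID2. WAG2 measured 5.97, 59.1 and 222 CPM in bravo-2 replicates 1, 2 and 3, against 225, 65.3 and 112 CPM in WT. Bravo-2 held both the lowest value and one of the highest, a 37.2-fold range, where WT spanned 3.45-fold. Its log2 fold change was -0.49 (standard error 1.08), given as a description. It was -2.06 without bravo-2 replicate 3, and turned positive without bravo-2 replicate 1 (0.06) or WT replicate 1 (0.14). WAG1 measured 10.7, 26.8 and 52.0 CPM in bravo-2, against 66.2, 15.0 and 29.4 CPM in WT. The WAG1 ranges overlapped over most of their extent. Its log2 fold change of -0.31 had a standard error of 0.73 and a 95% interval, as a fold of bravo-2 over WT, of 0.2503 to 2.614 (edgeR's adjusted p = 1.00, two-sided exact permutation p = 0.70, where 3 libraries against 3 cannot go below 0.10). It was 0.45 without WT replicate 1, 0.09 without bravo-2 replicate 1 and -0.99 without bravo-2 replicate 3.

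The D6 group was expressed in all 6 libraries. D6PK (chr5:22639813-22642414, minus strand), which gives the group its name, measured 71.5, 91.5 and 53.5 CPM in bravo-2 replicates 1, 2 and 3, against 60.4, 87.6 and 68.9 CPM in WT. D6PKL1 (chr4:13424477-13427402, plus strand), its closest relative, measured 52.3, 56.1 and 36.0 CPM in bravo-2, against 40.9, 64.2 and 32.7 CPM in WT. These 2 genes were the steadiest of the family, with less than a 2-fold range within either genotype. D6PKL2 (chr5:19339703-19342410, minus strand) measured 226, 136 and 66.2 CPM in bravo-2, against 89.5, 188 and 143 CPM in WT. D6PKL3 (chr3:10217417-10220061, minus strand) measured 39.9, 40.3 and 21.8 CPM in bravo-2, against 22.4, 51.8 and 33.1 CPM in WT. In all 4 the genotypes overlapped, and bravo-2 replicate 3 and WT replicate 1 were the lowest 2 libraries for D6PK, D6PKL2 and D6PKL3.

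Between the genotypes the D6 group differed by less than the spread between libraries. The means of D6PK were 72.2 ± 19.0 CPM in bravo-2 and 72.3 ± 13.9 CPM in WT, and those of D6PKL2 were 143 ± 80.3 CPM in bravo-2 and 140 ± 49.2 CPM in WT (SD, n = 3 each). The log2 fold changes were -0.00 for D6PK, 0.07 for D6PKL1, 0.03 for D6PKL2 and -0.07 for D6PKL3, with standard errors of 0.40, 0.42, 0.57 and 0.47 and an adjusted p of 1.00 for each (edgeR's quasi-likelihood test). The exact permutation p was 1.00 for D6PK and 0.90 for each of the other 3. The 95% intervals ran from -0.94 to 0.93 for D6PK, from -0.91 to 1.05 for D6PKL1, from -1.31 to 1.36 for D6PKL2 and from -1.17 to 1.02 for D6PKL3. These libraries therefore do not exclude a change within these bounds, which reach a fold of 0.404 and 2.57 for D6PKL2. For each of the 4, leaving out 1 library could turn the sign.

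**Figure D2:**
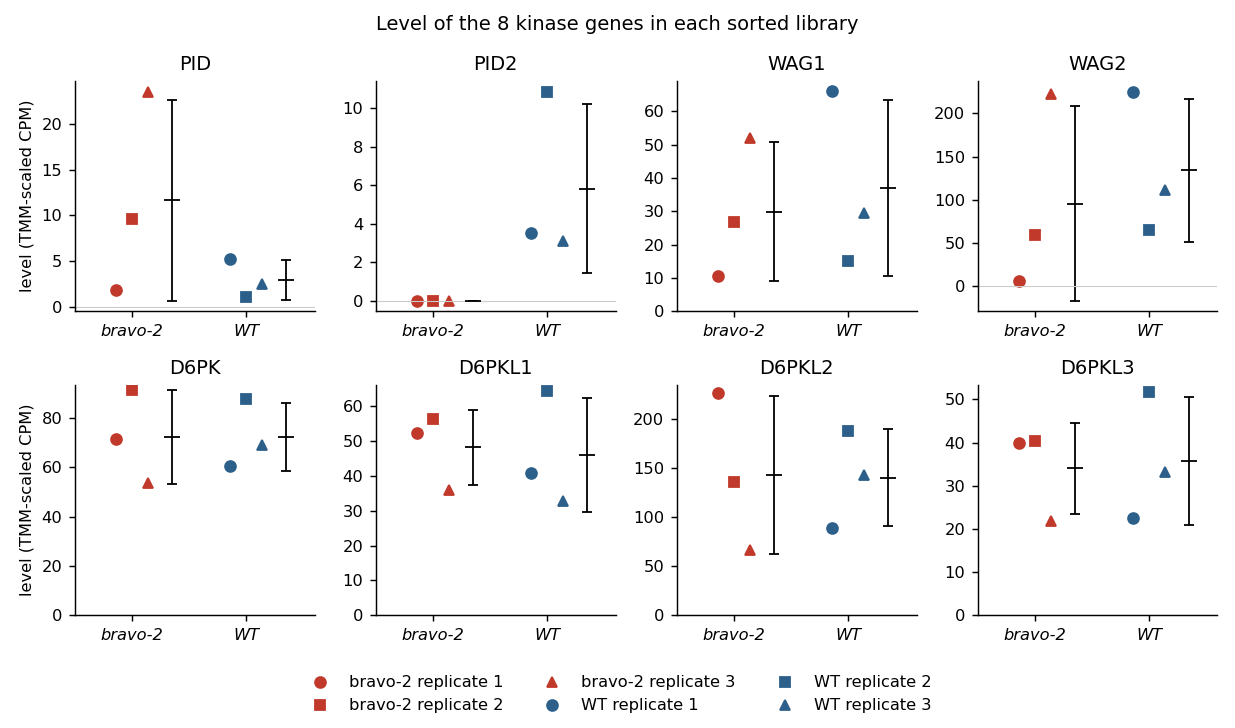
Level of each of the 8 kinase genes in TMM-scaled CPM (vertical axis, separate scale per gene), with bravo-2 left of WT. Points are single libraries, and the bar beside them is the mean with its standard deviation (n = 3). PID2 is at 0 in bravo-2, PID reaches 23.6 CPM in bravo-2 replicate 3, WAG2 spans 5.97 to 222 CPM in bravo-2, and the D6 genes overlap between the genotypes.

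In the fit across all genes, 0 of the 5 members tested there (WAG1 and the 4 D6 genes) passed the adjusted threshold of 0.05, where 0% of the 15739 genes tested did so. At an unadjusted p under 0.05 there were likewise 0 of the 5, against 125 genes or 0.794% of all genes. The count over all genes was 873 without bravo-2 replicate 3, 345 without bravo-2 replicate 1 and 75 without WT replicate 3. DESeq2 called 13 of the same genes and limma on log2(CPM + 1) called 0, and neither called any of the 5. The values of bravo-2 and WT did not overlap for 1 of the 8 members, PID2, which was chosen for it, while 3.67% of all genes did not overlap.

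Levels of different genes can be compared only per length, for which the deposited TPM values, which RSEM scales by transcript length and library, were used. In WT the medians were 92.6 TPM for WAG2, 89.9 for D6PKL2, 46.7 for D6PK, 24.8 for D6PKL1, 23.3 for WAG1, 20.4 for D6PKL3, 2.47 for PID2 and 1.69 for PID. The only neighbours in that order whose WT ranges stood apart were D6PKL3 and PID2. PID and PID2 were thus the low pair of the family, below 10 TPM in every WT library, and none of the steps between neighbours among the other 6 was resolved by their WT ranges. Farther apart in the order, the WT ranges of WAG2 and of D6PKL2 each lay above those of D6PKL1, WAG1 and D6PKL3, and that of D6PK lay above that of D6PKL3. Within single libraries D6PKL2 was above D6PK, D6PK above D6PKL1 and D6PKL3 above PID2 in 6 of 6 libraries. WAG2 was above D6PKL2 in only 3 of 6. In bravo-2, where PID2 was at 0, PID measured 1.69, 7.19 and 13.8 TPM in replicates 1, 2 and 3.

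The 2 groups of kinases were also summed in each library. The summed level of PID, PID2, WAG1 and WAG2 was 19.8, 82.6 and 203 TPM in bravo-2 replicates 1, 2 and 3, against 220, 84.7 and 120 TPM in WT. The summed level of the 4 D6 genes was 337, 226 and 96.9 TPM in bravo-2, against 124, 284 and 179 TPM in WT. Bravo-2 replicate 1 was lowest in the AGC3 sum and highest in the D6 sum, and WT replicate 1 and bravo-2 replicate 3 were the highest 2 in the AGC3 sum and the lowest 2 in the D6 sum. The ratio of the D6 sum to the other sum was 17.0, 2.73 and 0.478 in bravo-2, against 0.564, 3.36 and 1.49 in WT, so the bravo-2 range contained the WT range. Within the AGC3 group, WAG2 made up 33.7%, 63.7% and 76.1% of the sum in bravo-2 replicates 1, 2 and 3, against 72.0% to 77.2% in WT. Within the D6 group, D6PKL2 made up 35.9% to 56.7% in bravo-2 and 40.4% to 50.2% in WT.

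**Figure D3:**
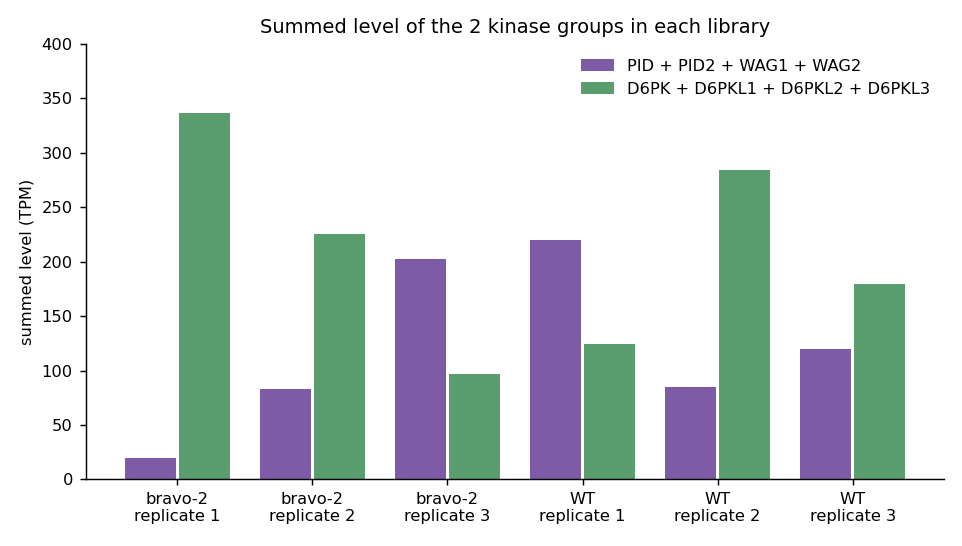
Summed level in TPM (vertical axis, from 0) of PID, PID2, WAG1 and WAG2 (purple) and of the 4 D6 genes (green) in each library, bravo-2 left of WT. The first sum is lowest (19.8 TPM) and the second highest (337 TPM) in bravo-2 replicate 1, while in bravo-2 replicate 3 and WT replicate 1 the first sum exceeds the second.

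The sorted populations were compared with marker genes of the QC and of other root cell types, whose levels varied between libraries. All 6 markers of the QC and stem cell niche (WOX5, BRAVO, AGL42, PLT1, PLT2 and SCR) were counted in every library, and their summed level was 3123, 984 and 482 CPM in bravo-2 replicates 1, 2 and 3, against 598, 1707 and 1714 CPM in WT. The 6 markers of root hair cells, RHD6, RSL4, EXPA7, COBL9, RHD2 and PRP3, which QC cells should lack, summed to 10.8, 1040 and 2955 CPM in bravo-2 and to 3681, 1651 and 2457 CPM in WT. None of these 6 was listed at 0 in any library, but together they came to only 10.8 CPM in bravo-2 replicate 1. Root cap markers (4 of 4 above the filter) summed to 63.9 to 102 CPM in bravo-2 and 97.2 to 159 CPM in WT, and endodermis markers (4 of 6) to 9.49 to 170 CPM in bravo-2 and 8.47 to 186 CPM in WT, with CASP4 and CASP5 at 0 in 1 library each. Stele markers (1 of 5) summed to 2.08 to 8.43 CPM in bravo-2 and 8.31 to 12.3 CPM in WT, with AHP6 at 0 in 1 library, APL in 2 and NAC086 in 3. In bulk libraries such as these, fewer cells of a type and less RNA per cell cannot be told apart.

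WAG2 followed the sum of the root hair markers. Both had the same order over the 6 libraries, from WT replicate 1 as the highest, through bravo-2 replicate 3, WT replicate 3, WT replicate 2 and bravo-2 replicate 2, to bravo-2 replicate 1 as the lowest. WAG1 differed from that order only in that bravo-2 replicate 2 and WT replicate 2 changed places. Of the single root hair markers, RSL4 and RHD2 were highest in bravo-2 replicate 3 and the others in WT replicate 1. D6PKL2 followed the sum of the niche markers, with bravo-2 replicate 1 the highest and bravo-2 replicate 3 the lowest. The order in between was the same except for WT replicates 2 and 3. Of the single niche markers, PLT1, PLT2 and SCR had the same highest and lowest library. WOX5 and AGL42 were lowest in WT replicate 1, and BRAVO was highest in WT replicate 3. PID2 had neither order. It was absent from bravo-2 replicate 1, where the niche sum was highest, and from bravo-2 replicate 3, where the root hair sum was within the WT range. Among the other markers, MYB36 (4.49 to 6.44 CPM in bravo-2, 6.53 to 15.5 CPM in WT) lay wholly below WT, as PID2 did. So did TMO5 (0.254 to 1.23 CPM in bravo-2, 2.4 to 5.21 CPM in WT) and AHP6, both below the filter. SMB and FEZ were highest in WT replicate 2, like PID2, but BRN1 and BRN2 in WT replicate 1. The part of cell make-up in these levels was not tested.

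**Figure D4:**
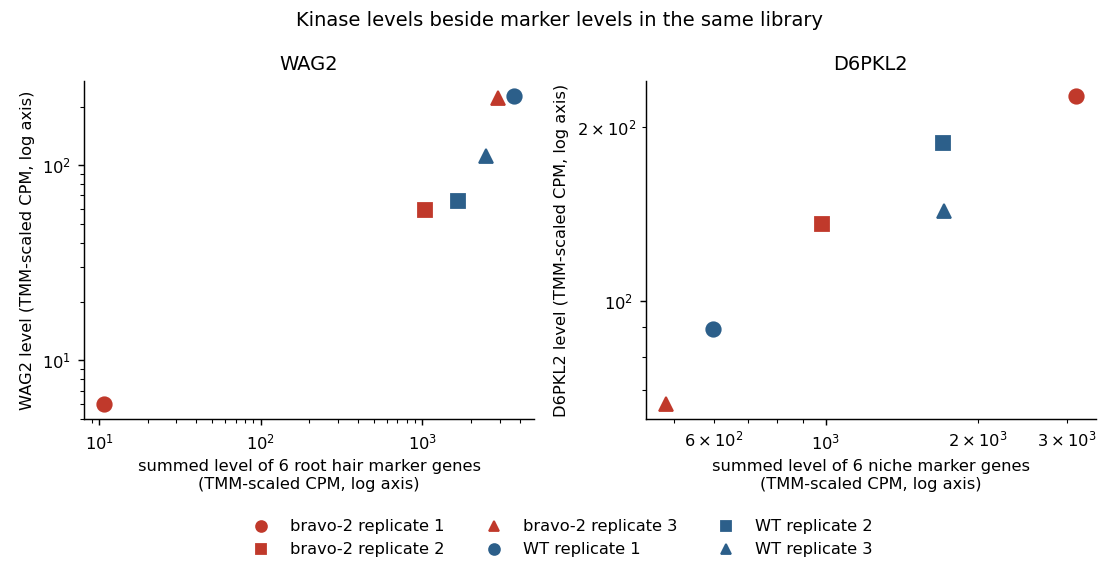
Left, WAG2 against the summed level of 6 root hair marker genes. Right, D6PKL2 against the summed level of 6 niche marker genes. All axes are TMM-scaled CPM on a log scale and each point is 1 library (bravo-2 red, WT blue). WAG2 is lowest (5.97 CPM) where the root hair sum is lowest (10.8 CPM), and D6PKL2 is highest (226 CPM) where the niche sum is highest (3123 CPM).

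All genes of a library share its depth and cell make-up. The genes whose levels were most like those of WAG2 were taken by Pearson correlation of log2(CPM + 1) over the 6 libraries. They were AT2G38152, ACA2 (AT4G37640), REN1 (AT4G24580), GEM (AT2G22475) and AT1G56080, all with r over 0.99. ACA2 encodes a calcium pump, REN1 a GTPase-activating protein known from pollen tube tip growth, and GEM a regulator of root hair patterning. REN1 measured 2.44, 41.5 and 160 CPM in bravo-2 replicates 1, 2 and 3, against 177, 41.4 and 69.7 CPM in WT. With 6 libraries such likeness is common, as 1761 of the genes tested had r over 0.95 with WAG2. For PID2, 13 did, led by AT5G62210 (r = 0.98), AT2G23300, AT2G23910, TAT7 (AT5G53970) and AT2G45315. AT5G62210 measured 47.7, 35.7 and 49.9 CPM in bravo-2 against 132, 327 and 173 CPM in WT, so it shared the peak of PID2 in WT replicate 2 without falling to 0 in bravo-2.

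The other genes of PIN phosphorylation were taken as a list of 40, of which 35 were expressed above the filter. None passed the adjusted threshold, 21 had a positive and 14 a negative log2 fold change, and the median was 0.06, beside 0.04 over all genes tested. Among the PIN genes, 5 of 8 were tested, with a median log2 fold change of 0.06, while PIN5 and PIN6 were listed at 0 and PIN8 was near 0. PIN4, the most abundant, measured 1873, 704 and 256 CPM in bravo-2 replicates 1, 2 and 3, against 451, 1290 and 982 CPM in WT. PIN4 had the same order over the 6 libraries as D6PKL2, with bravo-2 replicate 1 the highest and bravo-2 replicate 3 the lowest.

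PDK1 (AT5G04510) and AT3G10540, kinases of the type that activates AGC kinases, had log2 fold changes of -0.27 and -0.16. The 5 NPY genes, which encode scaffold proteins that act beside PID and its relatives at the membrane, all had positive values, from 0.13 to 0.95, with a median of 0.19 that was -0.13 without bravo-2 replicate 1 and 0.57 without bravo-2 replicate 3. The 5 genes of phosphatase subunits that oppose the kinases had values of 0.03 to 0.23. The calcium-binding partners of PID, PBP1 and TCH3, had values of -0.39 and 0.14, and BRX was below the filter. The 3 ABCB auxin transporters had values of -0.35 to 0.04.

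Of the 35 genes of the list, 3 had bravo-2 values wholly below WT, where 1.99% of all genes did, and 1 had them wholly above, where 1.68% did. The 3 were other kinases of the same plant AGC class. Below the filter, AGC2-2 (AT4G13000) of this class also lay wholly below WT. It measured 0, 0 and 1.80 CPM in bravo-2 replicates 1, 2 and 3, against 3.37, 2.37 and 1.98 CPM in WT. AGC1.7 (AT1G79250), known from pollen tube growth, measured 0.863, 3.31 and 8.24 CPM in bravo-2 replicates 1, 2 and 3, against 28.9, 17.5 and 26.4 CPM in WT. On the log2 scale AGC1.7 stood at -2.56 for bravo-2 over WT (standard error 0.79). With each library left out that value lay between -3.55 and -2.08. Before TMM scaling only the WT mean of AGC1.7 reached 4 CPM, at 23.3 CPM against 3.73 CPM in bravo-2. AGC1.7 was also picked for its lack of overlap, so these values are a description. AGC1.7 rose from bravo-2 replicate 1 to replicate 3, as did the root hair sum (10.8, 1040 and 2955 CPM). In bravo-2 replicate 3 AGC1.7 was below every WT library, and the root hair sum there was within the WT range. The part of cell make-up in the level of AGC1.7 was not tested.

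AT5G03640, annotated as a protein kinase, measured 0, 25.4 and 26.6 CPM in bravo-2, against 80.4, 70.9 and 82.7 CPM in WT. Its log2 fold change was -2.17 (standard error 1.41). UCNL (AT3G20830), a relative of the kinase UNICORN, measured 2.37, 17.7 and 28.2 CPM in bravo-2, against 43.0, 34.0 and 55.9 CPM in WT. The log2 fold change of UCNL was -1.46 (standard error 0.79), and -0.95 without bravo-2 replicate 1. The gene above WT was FYPP1 (AT1G50370), a catalytic phosphatase subunit, at 128, 145 and 138 CPM in bravo-2, against 116, 112 and 120 CPM in WT (log2 fold change 0.23, standard error 0.38). These 4 genes were picked for the lack of overlap. That choice fixes the exact permutation p and also bears on edgeR's p and interval. Their fold changes are therefore given as a description, without a p.

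**Figure D5:**
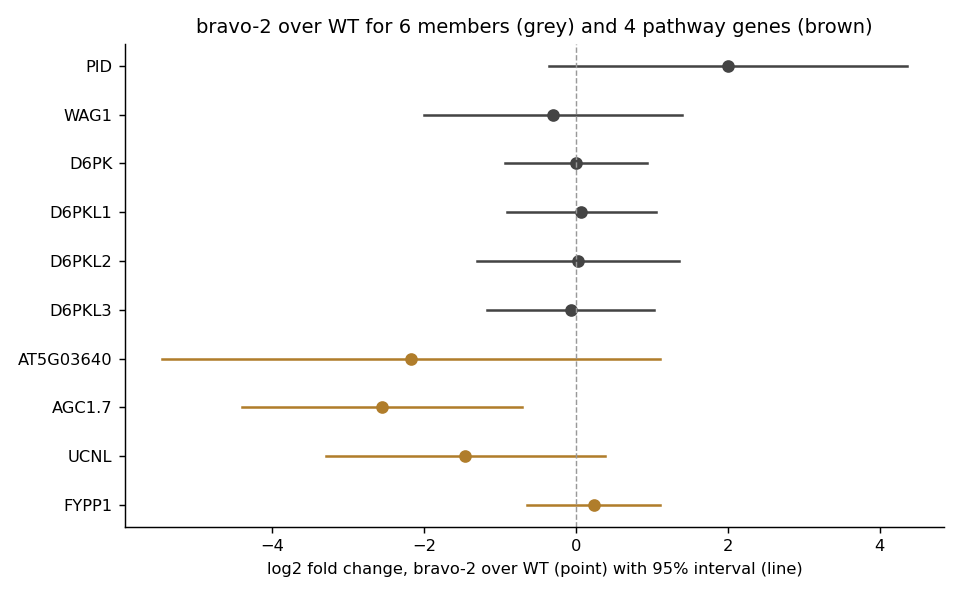
Log2 fold change of bravo-2 over WT (point) with its 95% interval (line) from edgeR. Grey marks the 6 members other than PID2 and WAG2, with PID as a description. Brown marks the 4 genes of the pathway list above the filter whose genotypes did not overlap. The brown genes were picked for that lack of overlap, so their intervals are a description only. The intervals of the grey members other than PID include 0. PID has the highest value (2.00) and AGC1.7 the lowest (-2.56).

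The mutated gene itself checks the labels only in part, since gene-level counts do not show whether reads fall outside the disrupted part. BRAVO measured 13.9, 10.3 and 11.8 CPM in bravo-2 replicates 1, 2 and 3, against 13.4, 37.8 and 60.9 CPM in WT (log2 fold change -1.63, standard error 0.58, edgeR's adjusted p = 1.00). WT replicate 1 lay within the bravo-2 range, whereas for PID2 the same library held 43 counts. WOX5, whose promoter drove the sort marker, measured 447, 121 and 97.1 CPM in bravo-2, against 80.8, 262 and 375 CPM in WT. Its log2 fold change was -0.11 (standard error 0.80, edgeR's adjusted p = 1.00), and its sign turned under several settings.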

How the data were processed

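RNA of sorted GFP-marked cells was sequenced for 3 bravo-2 and 3 WT libraries after SMART-Seq v4 amplification. According to the paper's methods, the authors removed adaptors with cutadapt, mapped reads to TAIR10 with STAR and quantified Araport11 transcripts with RSEM. Tool versions are not given in the sources used here. The deposited tables hold RSEM's expected count per gene, not normalized, together with TPM and FPKM values per library, which the authors' RSEM run scaled by effective length. Of the deposited expected counts above 0, 83% were within 0.001 of a whole number. The libraries held 10990217 to 14425249 counts, so that 3 counts, the smallest level taken as shown, correspond to 0.208 to 0.273 CPM before TMM scaling. No library repeated another, as any pair differed in the count of at least 22840 genes.

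Expected counts were rounded, the filter kept 15739 genes reaching a mean of 4 CPM in either genotype, and the contrast of bravo-2 over WT was fitted in edgeR (quasi-likelihood test, TMM) with p-values adjusted by Benjamini-Hochberg across those genes. CPM in the text is scaled by TMM unless stated otherwise, but the filter used CPM before that scaling. A standard error is the log2 fold change divided by the root of the F statistic. NOISeq and ARSyN, which the study applied after counting, were not run. For single genes an exact permutation test (two-sided) was run on log2(CPM + 1). The genes named were the 8 members, the pathway genes past the threshold or without overlap, the 5 genes most like PID2 and WAG2, BRAVO and WOX5. BAS1 and the other neighbours of PID2, AT1G29540, and the PIN, PDK1 and other pathway genes given with values beyond this rule were added after their values were seen. The members and lists were chosen with earlier results of these data known. Gene models, coding sequences and names came from RefSeq's TAIR10.1, in which 37051 of 37336 identifiers were found. Its coordinates are used for the annotation only, since the files give none. Proteins were aligned with BLOSUM62.

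On counts simulated for the contrast of bravo-2 with WT with 200 altered genes at a log2 fold change of 3, edgeR recovered 100% at a dispersion of 0.05 (15346 genes) and 77.5% at 0.316, the median of these libraries (15345 genes), with 14 false calls. The altered genes were drawn only from genes with a mean well above the filter. The recovery therefore does not cover genes as low as PID, PID2 or AGC1.7. Alternatives were upper quartile scaling, DESeq2, 2 other filters, limma, 2 pseudocounts, a block by replicate, a block by the leading digit of each title code, and leaving out each library. The software was R 4.3.3, edgeR 4.0.16, limma 3.58.1, DESeq2 1.42.0, Python 3.11.15, pandas 2.3.3, numpy 2.4.6, scipy 1.17.1, matplotlib 3.10.9 and Biopython 1.88.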

Additional observations from a re-analysis of the deposited data

How the results depend on the processing

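None of the 5 tested members passed the adjusted threshold under any of the 13 other fits. Nor did PID in the fit of all 26842 genes with a count. Over all genes the count was 13 with DESeq2 and 1 when all 26842 genes with a count were tested, and 0 in the remaining fits. With upper quartile scaling PID2 was still the single member without overlap between bravo-2 and WT. With each library left out that number was 1 to 2, with PID added without bravo-2 replicate 1 and WAG2 added without bravo-2 replicate 3, where 29.6% of all genes tested did not overlap. PID kept a positive log2 fold change under all settings, from 0.95 to 2.78 with a library left out. As PID passed the expression filter only through bravo-2, these values are a description.

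The small values of the D6 genes and of WAG1 changed sign. With a library left out the log2 fold changes ran from -0.99 to 0.45 for WAG1, -0.21 to 0.18 for D6PK, -0.11 to 0.39 for D6PKL1, -0.48 to 0.38 for D6PKL2, -0.29 to 0.29 for D6PKL3 and -1.14 to 0.40 for WOX5. D6PK was 0.06 with upper quartile scaling and 0.0023 with all genes with a count, D6PKL3 was 0.0004 and WOX5 0.01 with upper quartile scaling, and D6PKL2 was -0.08 with limma and with either pseudocount (1 or 0.25 CPM). The block for the first number of the title code gave -0.24 for D6PKL1, -0.08 for D6PKL2 and 0.52 for WOX5. Settings for WOX5, BRAVO and the 4 pathway genes were added once the data had been seen. The cause of these changes was not tested. The log2 fold change of PID2 depends on the pseudocount, from -2.59 at 1 CPM to -4.38 at 0.25 CPM, which is why the report gives a bound instead.

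Replicate numbers 1, 2 and 3 occur in both genotypes without a label that states a pairing. Replicate 1 of both genotypes has 1 as the leading digit of its title code, whose meaning the labels do not give. For replicates 2 and 3 that digit differs between the genotypes. The deviations of same-numbered libraries from the genotype means correlated at -0.72, -0.069 and -0.43 across genes. As any difference between single libraries enters these values, they cannot show whether same-numbered libraries shared a sort. With the replicate block 0 genes passed the threshold and 52 had an unadjusted p under 0.05, against 125 without it, and D6PKL2 changed sign to -0.10. The order of levels per length resolved 1 step in TPM and also in FPKM. The medians of the pathway groups also turned sign with a library left out for 6 of the 7 groups, all but the PDK1 pair. The spread between libraries limits the comparison of PID and the other members with counts in both genotypes. The TMM-scaled depth of bravo-2 and the lowest WT level set the bound for PID2.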
